A study of Homo sapiens with 9 samples.

Results

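The 9 genes described here govern the entry of glucose carbon into lower glycolysis. They were taken by symbol from a table of 60683 genes and comprise GPI, the phosphofructokinase genes PFKL, PFKM and PFKP, the bifunctional regulator genes PFKFB1, PFKFB2, PFKFB3 and PFKFB4, and TIGAR. The rule of choice used gene symbols and no measured value, but it was set with earlier results of these data known. RNA-seq was performed on 9 cultures of Hep3B, an established human hepatocellular carcinoma line, with 3 libraries in each of 3 groups after 24 hours. Cells received vehicle at 20% O2, vehicle at 1% O2, or 32-134D, a compound developed as an inhibitor of hypoxia-inducible factors (HIFs), at 1% O2. The vehicle was DMSO and the replicates were seeded in 6-well plates. The labels state no dose of 32-134D, no library combined it with 20% O2, and the 9 libraries represent this line alone.

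GPI, glucose 6-phosphate isomerase, interconverts glucose 6-phosphate and fructose 6-phosphate, and phosphofructokinase then phosphorylates fructose 6-phosphate in the committed step of glycolysis. Phosphofructokinase is strongly activated by fructose 2,6-bisphosphate, which the PFKFB enzymes both make and break, with a balance between kinase and phosphatase activity that differs between isoforms. PFKFB3 and PFKFB4 are established HIF-1 targets, and in liver PFKFB1 links the pathway to hormonal control of glucose output.

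Total counts ranged from 6013980 to 40549699 per library. All 9 genes passed the filter on low counts (a sum of at least 10 over the libraries), with totals from 72 counts for PFKFB1 to 93616 for GPI. Of 10 HIF target genes listed from general knowledge, 10 were higher at 1% O2 and 10 were lower with 32-134D. Across all genes tested, 19.5% rose at 1% O2 and 13.7% fell with 32-134D. The HIF target list was chosen with earlier results of these data known, so its counts are not an independent check. Of 10 hepatic marker genes, 10 were tested, and their summed level was 19040 to 20500 CPM (reads per 1000000 counted) with vehicle at 20% O2, 13840 to 17280 with vehicle at 1% O2 and 12130 to 18740 with 32-134D. Of these, 2 fell at 1% O2, and with 32-134D 1 rose and 3 fell, or 0 fell without replicate 3. Among all genes tested, 20.3% fell at 1% O2, and with 32-134D 16.2% rose and 13.7% fell. Of 10 leukocyte, endothelial and fibroblast markers, CD3E, VWF and ACTA2 had 0 counts in every library, and the list summed to 32.5 to 38.3 CPM, 12.6 to 14.4 CPM and 24.6 to 28.8 CPM in the same order of groups, mostly LYZ and COL1A1. This list fell at 1% O2 (4 of 5 tested genes lower) and rose with 32-134D (4 higher, and 3 without replicate 3), and its part in the results below was not tested. Replicate 3 of 32-134D stood apart from its group. Its chi-square per degree of freedom was 36.4 and 32.5 against replicates 1 and 2, which gave 2 against each other, and it carried the lowest hepatic marker sum. Results that rest on it are therefore given with and without it, or with its place among the libraries shown.

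Short sequences upstream of the genes are shown first because HIFs bind DNA at a core written A or G followed by CGTG. RefSeq windows of 300 bases on GRCh38.p14, from 250 bases before to 50 bases after an annotated start, were found for 8 of the 9 genes. They comprise 19 windows, of which 10 (52.6%) held ACGTG or GCGTG on either strand, against 48.4% of 35116 windows of all genes. Windows of the same gene can overlap, and windows 2 and 3 of PFKM hold the same match, so these counts are not of separate promoters. ACGTG alone was in 21.4% of all windows, GCGTG alone in 36.5% and the palindrome CACGTG, which holds ACGTG on both strands in overlap, in 7.26%. The 4 windows printed here belong to GPI, PFKFB3 and PFKFB4, which rose at 1% O2 and fell with 32-134D, and to TIGAR, which was called in no comparison. The TIGAR window holds ACGTG, as do those of GPI and PFKFB3, and the PFKFB4 window holds GCGTG. The sequences run 5′ to 3′ on the strand of the gene, with capitals marking the match.
PFKFB3, second window, chr10:6202682-6202981, plus strand: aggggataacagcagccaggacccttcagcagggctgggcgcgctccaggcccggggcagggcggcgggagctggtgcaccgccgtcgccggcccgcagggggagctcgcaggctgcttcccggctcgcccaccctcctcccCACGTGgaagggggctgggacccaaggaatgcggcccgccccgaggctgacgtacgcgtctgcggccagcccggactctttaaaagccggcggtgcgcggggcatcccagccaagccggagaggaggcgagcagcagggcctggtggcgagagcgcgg
PFKFB4, chr3:48556754-48557053, minus strand: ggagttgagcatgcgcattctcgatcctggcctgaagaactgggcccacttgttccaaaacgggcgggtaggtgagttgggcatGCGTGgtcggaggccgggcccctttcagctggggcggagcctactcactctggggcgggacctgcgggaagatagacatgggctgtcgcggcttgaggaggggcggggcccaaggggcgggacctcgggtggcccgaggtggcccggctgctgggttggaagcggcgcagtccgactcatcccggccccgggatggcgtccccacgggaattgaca
GPI, chr19:34364742-34365041, plus strand: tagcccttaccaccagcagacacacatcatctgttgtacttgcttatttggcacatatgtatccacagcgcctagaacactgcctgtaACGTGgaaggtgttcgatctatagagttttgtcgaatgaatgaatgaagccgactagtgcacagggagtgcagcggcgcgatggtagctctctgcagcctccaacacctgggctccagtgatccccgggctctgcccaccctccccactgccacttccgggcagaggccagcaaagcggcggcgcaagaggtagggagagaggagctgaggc
TIGAR, chr12:4320963-4321262, plus strand: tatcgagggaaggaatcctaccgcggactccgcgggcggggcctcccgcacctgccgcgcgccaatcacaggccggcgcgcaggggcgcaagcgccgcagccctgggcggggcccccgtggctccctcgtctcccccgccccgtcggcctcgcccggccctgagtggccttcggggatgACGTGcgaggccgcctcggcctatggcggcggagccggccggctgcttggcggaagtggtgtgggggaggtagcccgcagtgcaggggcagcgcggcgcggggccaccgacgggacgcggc
The matches began 108 bases before the start in PFKFB3, 166 in PFKFB4, 162 in GPI and 71 in TIGAR. Windows of PFKL, PFKM and PFKP also held a match, and those of PFKFB1 held none. A match of these letters is a description of the sequence and was not tested for binding.

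The first question was how 1% O2 altered these genes in vehicle-treated cells. Of the 9 genes, 4 rose (GPI, PFKP, PFKFB3 and PFKFB4) and 3 fell (PFKM, PFKFB1 and PFKFB2) at a false discovery rate (FDR) below 0.05 and a fold change above 1.5 in edgeR's quasi-likelihood test. Among all 22672 genes tested, 19.5% rose and 20.3% fell. The libraries of the 2 groups did not overlap for any of the 9 genes, as was the case for 60.5% of all genes tested. The median log2 fold change was 0.48 for the 9 genes and 0.00 for all genes. In bulk RNA, a change in the level per cell and a change in the share of cells that express a gene cannot be told apart.

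The second question was whether 32-134D altered the same genes at 1% O2. Compared with vehicle at 1% O2, 3 of the 9 genes rose (PFKM, PFKFB1 and PFKFB2) and 3 fell (GPI, PFKFB3 and PFKFB4), where 16.2% of all genes tested rose and 13.7% fell. The libraries did not overlap for 7 genes, the exceptions being PFKP and TIGAR, against 56.1% of all genes tested. The median log2 fold change was −0.55 for the 9 genes and −0.01 for all genes. The vehicle libraries at 1% O2 enter both comparisons, so their opposite signs are not independent of each other. Without replicate 3 of 32-134D, PFKP was also called lower and PFKM was no longer called higher, which gave 4 lower and 2 higher.

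Treated cells at 1% O2 were then compared with vehicle-treated cells at 20% O2, which asks how far the levels remained from the oxygenated state. Only PFKFB4 was called higher and none was called lower, against 3.0% and 0.516% of all genes tested. At an unadjusted p below 0.05, 3 of the 9 genes were higher (PFKFB4, PFKFB3 and PFKP) and 1 was lower (PFKFB2), against 14.7% and 9.91% of all genes tested. DESeq2 also called 0 of the 9 genes lower. With DESeq2 the number called higher was 2, PFKP being added.

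**Figure D1:**
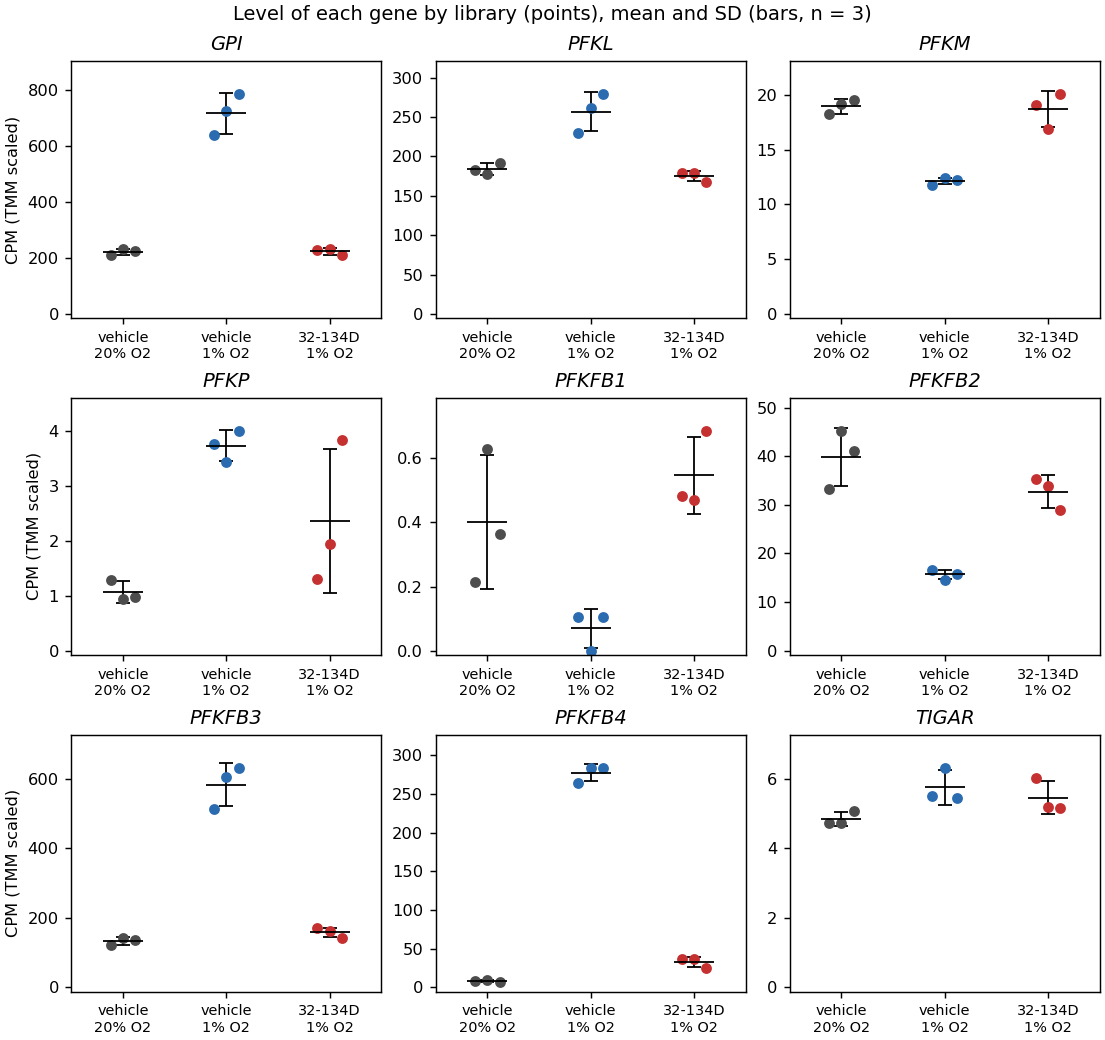
Level of each of the 9 genes in CPM scaled by the trimmed mean of M-values (TMM, linear axis), with 1 point per library, a horizontal bar for the mean and error bars for the SD of 3 libraries. GPI, PFKFB3 and PFKFB4 are highest with vehicle at 1% O2, PFKM, PFKFB1 and PFKFB2 are low there, and the 32-134D libraries of PFKP run from 1.30 to 3.84 CPM.

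**Figure D2:**
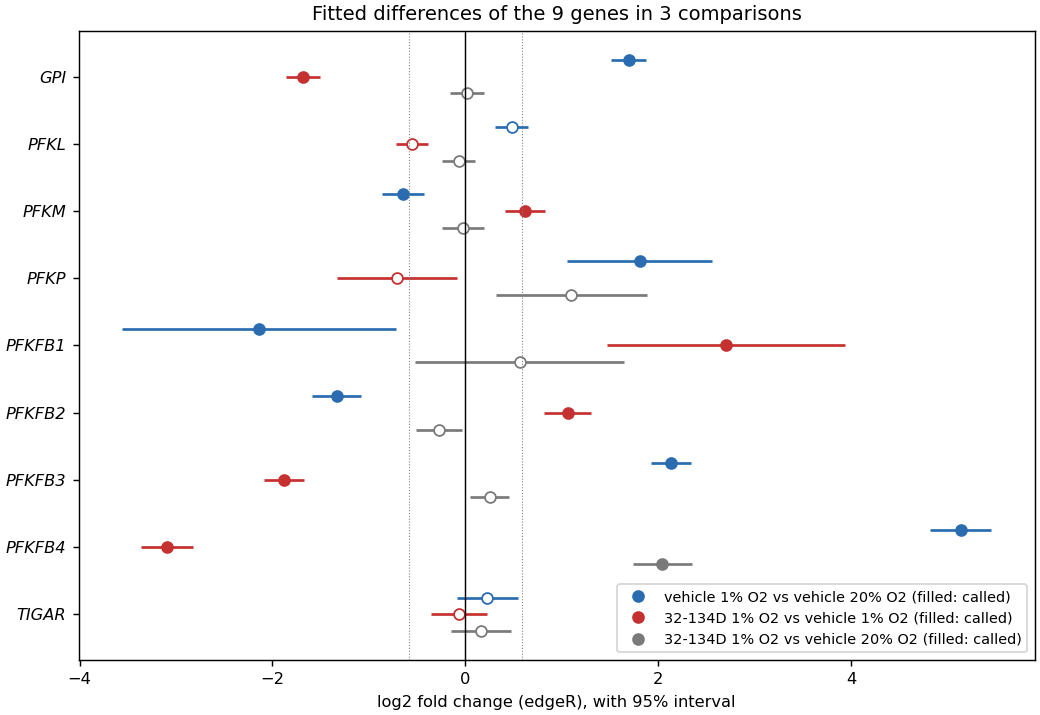
Log2 fold change of the 9 genes in the 3 comparisons, with 95% intervals from edgeR, filled points for calls at FDR below 0.05 and fold change above 1.5, and dotted lines at a 1.5-fold change. PFKFB4 alone has a filled point in the comparison of 32-134D at 1% O2 with vehicle at 20% O2, at 2.04.

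PFKFB4, a bifunctional isoform first known from testis, showed the largest difference. Its gene lies on the minus strand of chr3:48517684-48562015 (ENSG00000114268). Its level was 8.10, 9.26 and 7.15 CPM in replicates 1 to 3 with vehicle at 20% O2. At 1% O2 it was 265, 284 and 283 CPM with vehicle and 36.0, 36.1 and 24.9 CPM with 32-134D. The 3 groups were fully separated, and the treated cells lay between the vehicle groups. Hypoxia raised PFKFB4 35.2-fold (log2 fold change 5.14, SE 0.15, edgeR FDR 3.71e-12), the rank of 54 from the top among 22672 genes. 32-134D lowered it 8.54-fold relative to vehicle at 1% O2 (log2 fold change −3.09, SE 0.12, edgeR FDR 3.01e-10). The remaining level was 4.12-fold above that of vehicle at 20% O2 (log2 fold change 2.04, SE 0.14, edgeR FDR 4.76e-07). On the log2 scale, 32-134D removed 61.3% ± 6.05 of the hypoxic increase (SD, n = 3). For this and the later removed or reversed shares, the SD covers the 3 treated libraries only. Both vehicle means were held fixed, so the spread of the vehicle libraries is not included.

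PFKFB3, the inducible isoform whose kinase activity far exceeds its phosphatase activity, was the most abundant regulator. It lies on the plus strand of chr10:6144934-6254644 (ENSG00000170525). With vehicle at 20% O2 its level was 121, 143 and 135 CPM, with vehicle at 1% O2 it was 514, 604 and 633 CPM, and with 32-134D it was 170, 162 and 143 CPM. The treated libraries lay just above those at 20% O2, with the lowest treated value next to the highest oxygenated value. Hypoxia raised PFKFB3 4.40-fold (log2 fold change 2.14, SE 0.10, edgeR FDR 2.73e-10) and 32-134D lowered it 3.68-fold (log2 fold change −1.88, SE 0.10, edgeR FDR 2.69e-09). The difference between treated cells and vehicle at 20% O2 was 0.25 on the log2 scale, with a 95% interval of 0.05 to 0.46 and an FDR of 0.107, and was not called. The share of the log2 increase that 32-134D removed was 88.2% ± 5.97 (SD, n = 3).

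GPI, the isomerase upstream of phosphofructokinase, lies on the plus strand of chr19:34359480-34402413 (ENSG00000105220). Its level was 209, 232 and 224 CPM with vehicle at 20% O2, 640, 726 and 787 CPM with vehicle at 1% O2 and 229, 231 and 210 CPM with 32-134D. The treated and oxygenated libraries were interleaved. Hypoxia raised GPI 3.24-fold (log2 fold change 1.70, SE 0.08, edgeR FDR 6.14e-10), and 32-134D lowered it 3.21-fold (log2 fold change −1.68, SE 0.08, edgeR FDR 2.33e-09). The treated level differed from that at 20% O2 by 0.01 on the log2 scale, with a 95% interval of −0.16 to 0.19. The removed share of the log2 increase was 99.3% ± 4.46 (SD, n = 3). Without replicate 3 of 32-134D, the removed shares were 96.7% for GPI, 84.9% for PFKFB3 and 57.8% for PFKFB4.

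PFKL, PFKM and PFKP encode the liver, muscle and platelet types of phosphofructokinase, which assemble into tetramers. PFKL, on the plus strand of chr21:44300051-44327376 (ENSG00000141959), had 182, 178 and 192 CPM with vehicle at 20% O2, 229, 262 and 279 CPM with vehicle at 1% O2 and 179, 179 and 168 CPM with 32-134D. The vehicle libraries at 1% O2 were all above the rest, but the differences stayed under 1.5-fold. The level was 1.40-fold higher at 1% O2 (log2 fold change 0.48, SE 0.08, edgeR FDR 0.000101) and 1.46-fold lower with 32-134D (log2 fold change −0.55, SE 0.08, edgeR FDR 3.82e-05), so PFKL passed the FDR threshold and missed the fold threshold in both. Without replicate 1 of vehicle at 1% O2, the second difference was −0.63 and was called.

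PFKM, on the plus strand of chr12:48105139-48146404 (ENSG00000152556), had the opposite sign to PFKL in both comparisons. It had 18.2, 19.2 and 19.5 CPM with vehicle at 20% O2, 11.8, 12.4 and 12.2 CPM with vehicle at 1% O2 and 19.1, 16.9 and 20.1 CPM with 32-134D. The vehicle libraries at 1% O2 were low and close together, and the other 2 groups overlapped. Hypoxia lowered PFKM 1.57-fold (log2 fold change −0.65, SE 0.10, edgeR FDR 7.04e-05) and 32-134D raised it 1.54-fold (log2 fold change 0.62, SE 0.10, edgeR FDR 0.000101). Without replicate 3 of 32-134D, the rise was 0.57 on the log2 scale, just under the fold threshold. PFKM shares 628 exonic bases (8.58% of its exons) with SENP1 on the opposite strand, and whether reads were counted by strand is not given in the sources used here. SENP1, a SUMO protease, differed by 0.88 at 1% O2 and −0.38 with 32-134D on the log2 scale, with signs opposite to those of PFKM.

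PFKP, on the plus strand of chr10:3066333-3137712 (ENSG00000067057), was the scarcest phosphofructokinase RNA. It was read 18, 6 and 32 times with vehicle at 20% O2, 142, 73 and 116 times with vehicle at 1% O2 and 46, 58 and 84 times with 32-134D, which corresponds to 1.29, 0.942 and 0.973 CPM, 3.76, 3.44 and 4.01 CPM and 1.30, 1.95 and 3.84 CPM. Hypoxia raised it 3.50-fold (log2 fold change 1.81, SE 0.35, edgeR FDR 0.000459). The treated libraries were spread from near the oxygenated level in replicate 1 to within the hypoxic range in replicate 3. The difference between 32-134D and vehicle at 1% O2 was not called (log2 fold change −0.71, SE 0.29, edgeR FDR 0.0579), and the removed share of the log2 increase was 44.1% ± 43.3 (SD, n = 3). Without replicate 3, the decrease was −1.22 (edgeR FDR 9.06e-06), and the removed share was 67.4%. Relative to vehicle at 20% O2, treated cells differed by 1.10 on the log2 scale (SE 0.36, edgeR FDR 0.0726), by 1.42 without replicate 1 of 32-134D (FDR 0.00976) and by 0.60 without its replicate 3.

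PFKFB2, the heart isoform of the bifunctional enzyme, lies on the plus strand of chr1:207034366-207081024 (ENSG00000123836). Its level was 33.3, 45.2 and 41.0 CPM with vehicle at 20% O2, 16.6, 14.6 and 15.9 CPM with vehicle at 1% O2 and 35.3, 33.9 and 28.99 CPM with 32-134D. The hypoxic vehicle libraries were below all others, and the treated libraries overlapped the lower end of the oxygenated ones. Hypoxia lowered PFKFB2 2.52-fold (log2 fold change −1.33, SE 0.12, edgeR FDR 1.92e-07) and 32-134D raised it 2.09-fold (log2 fold change 1.06, SE 0.12, edgeR FDR 2.85e-06). On the log2 scale the decrease was reversed by 79.3% ± 11.2 for PFKFB2 and by 96.1% ± 20.1 for PFKM (SD, n = 3). The shares ran from 66.6% to 87.7% for PFKFB2 and from 73.9% to 113% for PFKM. Replicate 3 of 32-134D gave the lowest for PFKFB2 and the highest for PFKM, so the difference between these means rests partly on it. PFKFB2 shares 315 exonic bases (3.09%) with YOD1, a deubiquitinase gene on the opposite strand with 15039 counts in all against 6378 for PFKFB2. YOD1 differed by 1.75 at 1% O2 and −0.96 with 32-134D on the log2 scale, so its signs were opposite to those of PFKFB2.

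PFKFB1, the liver isoform, lies on the minus strand of chrX:54932961-54998534 (ENSG00000158571) and was close to the detection limit in this liver cancer line. It was read 3, 4 and 12 times with vehicle at 20% O2, 4, 0 and 3 times with vehicle at 1% O2 and 17, 14 and 15 times with 32-134D. Each treated library thus held more reads than any vehicle library, while the hypoxic vehicle libraries held no more than 4. Scaled to library size, the treated libraries (0.471 to 0.686 CPM) overlapped those at 20% O2 (0.215 to 0.628 CPM). The ratio of normalized read rates was 0.223 for hypoxia, with a 95% exact Poisson interval of 0.0792 to 0.554 that covers counting error only, and 6.65 for 32-134D relative to vehicle at 1% O2, with an interval of 2.98 to 17.5. The treated rate relative to vehicle at 20% O2 was 1.48, with an interval of 0.852 to 2.68 that includes 1. edgeR called the decrease (log2 fold change −2.14, SE 0.66, FDR 0.0134) and the increase (log2 fold change 2.70, SE 0.58, FDR 0.00126), and neither passed when all libraries were thinned to the smallest (FDR 0.209 and 0.0865). Without replicate 3 of vehicle at 20% O2, the decrease was not called (FDR 0.0627).

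TIGAR, named for its induction by p53, is a phosphatase that lowers fructose 2,6-bisphosphate, and it lies on the plus strand of chr12:4307763-4354593 (ENSG00000078237). Its level was 4.73, 4.71 and 5.08 CPM with vehicle at 20% O2, 5.49, 6.32 and 5.43 CPM with vehicle at 1% O2 and 6.01, 5.18 and 5.17 CPM with 32-134D. The vehicle libraries at 1% O2 lay slightly above those at 20% O2 and overlapped the treated ones, and TIGAR was called in none of the 3 comparisons. The log2 fold change was 0.23 at 1% O2, with a 95% interval of −0.08 to 0.54 (edgeR FDR 0.204), and −0.07 with 32-134D, with an interval of −0.36 to 0.23 (edgeR FDR 0.758). The intervals leave room for changes of up to about 0.54 on that scale. Of 10 p53 target genes, 3 rose and 1 fell at 1% O2, and 0 rose and 2 fell with 32-134D, with medians of 0.00 and −0.03 on the log2 scale. The exons of TIGAR overlap those of AC008012.1 on the same strand over 1711 bases (42.6%). AC008012.1 had 0 counts, and how reads in shared bases were counted is not given in the sources used here.

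To compare genes with each other, CPM were divided by the length of merged exons in kilobases. At 20% O2 the highest levels per kilobase were 21.7 ± 1.76 for PFKFB3, 20.7 ± 1.07 for GPI and 20.6 ± 0.80 for PFKL (SD, n = 3), which overlapped each other. PFKFB2 (3.91) and PFKM (2.59) followed. PFKFB4 (1.34) and TIGAR (1.21) overlapped, as did PFKP (0.221) and PFKFB1 (0.196) at the low end. With vehicle at 1% O2 the order was PFKFB3 (95.4 ± 10.2), GPI (67.2 ± 6.90), PFKFB4 (45.4 ± 1.80) and PFKL (28.8 ± 2.83), and PFKFB4 had moved from the sixth place to the third. With 32-134D, PFKFB4 held the fourth place at 5.30 ± 1.05 CPM per kilobase. When the longest transcript was used in place of merged exons, GPI came first in each of the 3 groups, so the order of PFKFB3 and GPI depends on the length chosen.

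**Figure D3:**
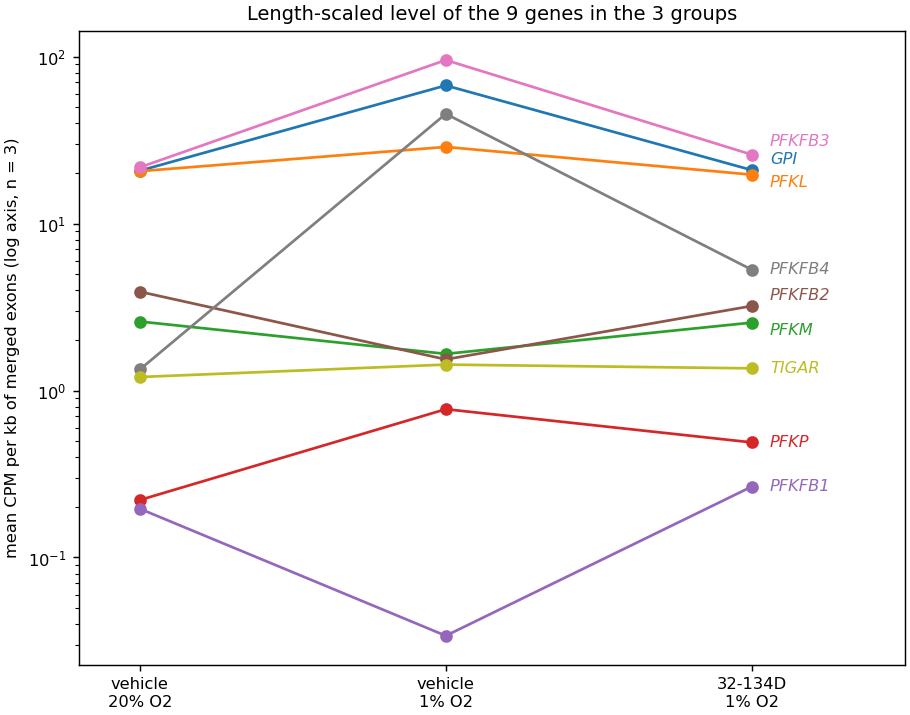
Mean level of the 9 genes per kilobase of merged exons (log axis, n = 3) in the 3 groups, joined by lines for each gene. PFKFB4 crosses PFKM, PFKFB2 and PFKL between 20% and 1% O2, from 1.34 to 45.4 CPM per kilobase, and ends at 5.30 with 32-134D.

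The make-up of each gene family was then examined as shares of its summed level per kilobase. The PFKFB genes together rose from 27.2 ± 2.52 CPM per kilobase at 20% O2 to 142 ± 11.8 with vehicle at 1% O2, and stood at 34.7 ± 3.53 with 32-134D (SD, n = 3). PFKFB3 supplied 63.9% of that rise and PFKFB4 38.3%, while PFKFB2 offset it by −2.06%. PFKFB4 made up 5.41%, 5.13% and 4.27% of the family with vehicle at 20% O2, 33.6%, 31.7% and 30.6% with vehicle at 1% O2 and 15.8%, 16.4% and 13.3% with 32-134D. The share of PFKFB3 was 80.1%, 66.9% and 74.8% on average in the same order, and that of PFKFB2 was 14.3%, 1.09% and 9.26%. The log2 ratio of PFKFB3 to PFKFB4 was 4.03 ± 0.18, 1.07 ± 0.10 and 2.31 ± 0.19. These 4 measures differed among the 3 groups (exact permutation test over the libraries, two-sided, p = 0.00357, the smallest this design allows, and 0.00714 after Benjamini-Hochberg adjustment over 8 measures). The size of the shares depended on the length scaling. Without it, the share of PFKFB3 was 73.4%, 66.5% and 70.8%, so that it differed by −6.91 percentage points at 1% O2 and by 4.32 with 32-134D, in place of −13.1 and 7.87 (exact permutation test over the 3 groups, p = 0.00714, adjusted p = 0.0143). The share of PFKFB2 then differed by −20.1 and 12.8 percentage points in place of −13.2 and 8.17, and the log2 ratio of PFKFB3 to PFKFB4 differed by the same amounts with and without the scaling. Each pair of groups reached p = 0.1, which is the smallest an exact permutation test of 3 against 3 can give.

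The phosphofructokinase genes varied less. Their summed level was 23.4 ± 0.836, 31.2 ± 2.88 and 22.7 ± 0.324 CPM per kilobase (SD, n = 3), of which PFKL made up 88.0%, 92.2% and 86.6%. The share of PFKM was 11.1%, 5.34% and 11.3%. The exact permutation test over the 3 groups gave an adjusted p of 0.0171 for PFKL and 0.0367 for PFKM. PFKP contributed 0.945%, 2.49% and 2.17% (adjusted p = 0.121, exact permutation test), and without replicate 3 of 32-134D this became 0.00571. Without replicate 1 of 32-134D it was 0.0429, and the difference in the PFKP share between 32-134D and vehicle at 1% O2 changed sign to 0.18 percentage points from −0.32. The share of PFKFB1 in its own family was 0.701%, 0.0244% and 0.784% (adjusted p = 0.0333, exact permutation test), and this was 0.0816 without any one of the vehicle libraries at 1% O2 and 0.0531 without replicate 3 of vehicle at 20% O2. Without length scaling, the share of PFKFB1 differed by −0.208 percentage points at 1% O2 and 0.242 with 32-134D in place of −0.677 and 0.759, and that of PFKP by 0.853 and −0.163 in place of 1.54 and −0.32.

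**Figure D4:**
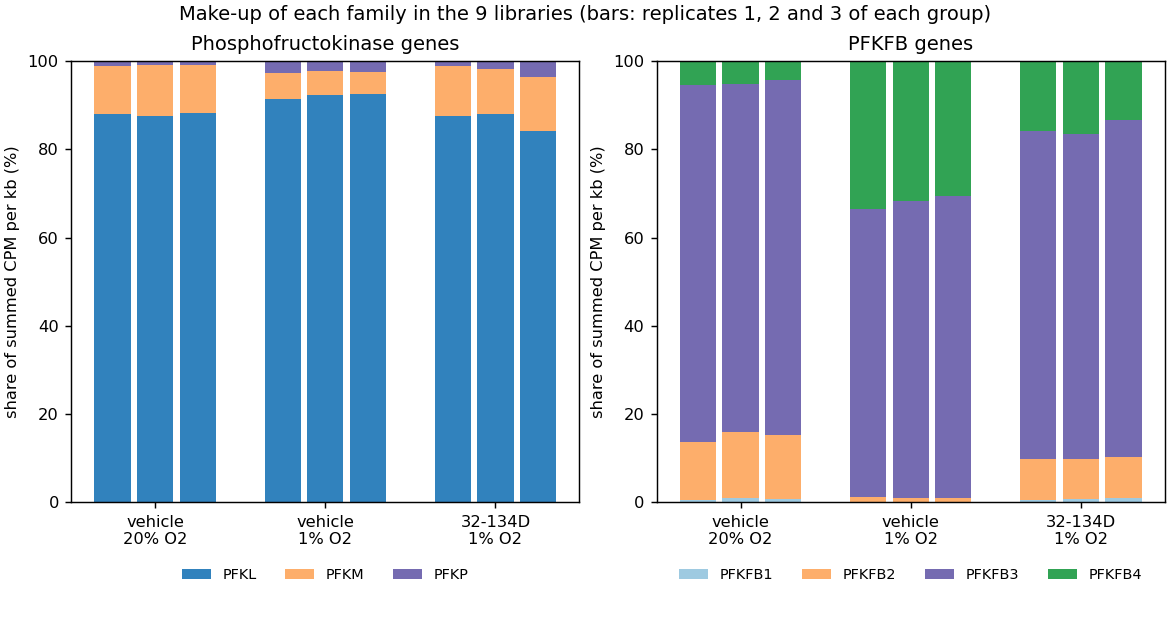
Share of each gene in the summed CPM per kilobase of its family (percent, stacked bars from 0 to 100), with 1 bar per library in the order of replicates 1 to 3. PFKFB4 occupies 30.6% to 33.6% of the PFKFB bars with vehicle at 1% O2 and 13.3% to 16.4% with 32-134D, and PFKL is the largest part of every phosphofructokinase bar.

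The rest of the pathway was described from a list of 21 other glycolytic genes, of which 19 were tested. LDHB, a lactate dehydrogenase with 4 counts in all, was among those not tested. At 1% O2, 15 rose and 2 fell, with a median log2 fold change of 2.07 against 0.00 for all genes, so the increases of GPI (1.70) and PFKFB3 (2.14) lay on either side of that median. The largest were those of SLC2A1, the glucose transporter GLUT1 (4.23), ENO2, an enolase (4.04), and LDHA, a lactate dehydrogenase (3.46), and the increase of PFKFB4 (5.14) exceeded each of them. The 2 genes that fell were SLC2A2, the hepatic glucose transporter GLUT2 (−4.41), and PKLR, the liver pyruvate kinase (−1.87). With 32-134D, 2 rose and 15 fell, with a median of −1.76. The strongest decreases were those of HK1, a hexokinase read 26, 15 and 17 times with vehicle at 1% O2 and 0, 1 and 2 times with 32-134D, SLC2A3, the glucose transporter GLUT3 (−2.87), and ENO2 (−2.78). Relative to vehicle at 20% O2, 5 of the 19 genes remained higher with 32-134D and 0 were lower, with a median of 0.31. The counts were equal without replicate 3 of 32-134D.

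SLC2A2 and PKLR had the same signs as PFKFB1, PFKFB2 and PFKM in both comparisons. SLC2A2 rose by 3.65 with 32-134D on the log2 scale (edgeR FDR 8.26e-05), with 20.99, 21.04 and 2.33 CPM in replicates 1 to 3. PKLR rose by 1.04 (edgeR FDR 0.0159), with 19.6, 17.4 and 4.98 CPM. Replicate 3 was thus low for both, and without it the increases were 4.13 and 1.43. FBP1, the fructose 1,6-bisphosphatase that opposes phosphofructokinase in gluconeogenesis, had a mean level of 6.75 CPM with vehicle at 20% O2 and 1.71 CPM with vehicle at 1% O2 (log2 fold change −1.97, edgeR FDR 2.05e-05). With 32-134D it had 4.68, 4.54 and 1.88 CPM (log2 fold change 1.14, edgeR FDR 0.00257, and 1.44 without replicate 3). FBP2, the muscle form, had 3 counts in all and was not tested. PFKFB2 in replicate 3 of 32-134D was 28.99 CPM against 35.3 and 33.9 in the others, so it was not low there to the degree of these genes.

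The genes whose pattern over the 9 libraries lay nearest to each called gene were found by the root mean square difference of centred log2 CPM among 11508 genes with a mean of at least 100 counts. For GPI they were NMB (0.0943), TMEM37 (0.107) and the glycolytic gene TPI1 (0.108). For PFKFB3 they were MPP2 (0.1), the enolase gene ENO1 (0.102) and FUNDC2 (0.107), and for PFKFB4 they were CRABP2 (0.297), the HIF target ADM (0.304) and ARRDC4 (0.340). The PFKFB4 distances were larger than those of GPI and PFKFB3, and the nearest gene to PFKP, ZIC2, lay at 0.181. For the genes that fell, the nearest were SLC45A4 (0.0512), HTT and MAP4K4 for PFKFB2, FARP1 (0.0554) and TCF7 for PFKM, and SAMD12 (0.384), PCDH9 and STEAP3 for PFKFB1. Among the 9 genes themselves, GPI and PFKFB3 were near each other at 0.183, whereas GPI and PFKFB4 were 1.40 apart. The distance is not scaled for the size of a change, and at 1% O2 PFKFB4 rose by 5.14 and GPI by 1.70 on the log2 scale. It therefore does not separate a difference in direction from a difference in size.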

How the data were processed

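The authors deposited 1 table of raw read counts per Ensembl gene, made with Bbduk, FastQC, STAR mapping to an Ensembl 100 reference (GRCh38) and featureCounts. Tool versions and the strand setting are not given in the sources used here. Its 9 columns were matched to the 3 groups by their labels. Log2 fold changes came from edgeR 4.0.16 in R 4.3.3 (TMM scaling, quasi-likelihood test, 1 fit of 9 libraries, Benjamini-Hochberg FDR over 22672 genes with counts summing to at least 10), with calls at FDR below 0.05 and fold change above 1.5. CPM use full library totals (6013980 to 40549699 counts) and TMM factors, and the depth limits PFKFB1 and PFKP most. Exon lengths and positions came from GENCODE 29 on GRCh38, an earlier release than that counted. The labels call the replicates biological, without saying whether they were separate experiments. The p-values take each culture as a replicate and may not cover variation between separate experiments. Shares were tested by exact permutation of libraries, two-sided.

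All 9 genes are named, with the 3 nearest genes to each called one by root mean square difference (prior count 2), the 3 largest and 3 smallest changes in the glycolytic list in the first 2 comparisons, and both fructose bisphosphatase genes. The values of 3 single genes that this rule covers or that the lists hold are not reported here. Overlapping genes and the markers CD3E, VWF, ACTA2, LYZ and COL1A1 were named after their values were seen. The members and lists were chosen with earlier results of these data known. Alternatives were DESeq2 1.42.0, other scalings and filters, fits of 2 groups, thinning, a replicate block, other lengths and leaving out each library; lists without 1 library were added after seeing the data. The code was tested on simulated data. Replicate libraries differed by more than counting noise (chi-square per degree of freedom 1.62 to 36.4), and none was a duplicate.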

Additional observations from a re-analysis of the deposited data

How the results depend on the processing

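The counts of the 9 genes called at 1% O2 and with 32-134D stayed within 1.5 times under every alternative, and PFKP and PFKFB1 could not be fitted where 10 counts in every library were required. The number called higher with 32-134D at 1% O2 against vehicle at 20% O2 was 2 in place of 1, with PFKP added, without a low-count filter (log2 fold change 1.12, FDR 0.00105) and with DESeq2 (1.14, FDR 0.0223), and ranged from 1 to 2 when single libraries were left out, being 2 without replicate 1 of 32-134D. The cause was not tested. The sign of log2 fold changes near 0 changed in 11 cases. For TIGAR with 32-134D against vehicle at 1% O2 it was 0.121 under plain library totals, 0.029 under a minimum of 10 counts per library, and −0.099 to 0.00437 when single libraries were left out, and against vehicle at 20% O2 it was −0.240 after thinning. For GPI against vehicle at 20% O2 it was −0.0135 and −0.00275 under the same totals and minimum, and −0.0216 to 0.071 when single libraries were left out. For PFKM against vehicle at 20% O2 it was 0.0422 after thinning, and −0.0802 to 0.042 when single libraries were left out. When single libraries were left out, the PFKP share difference ranged from 1.4 to 1.67 percentage points for hypoxia and from −1.01 to 0.176 for 32-134D, being 0.18 without its replicate 1, and the PFKFB1 share difference ranged from −0.815 to −0.512 and from 0.607 to 0.837. The decrease of PFKP with 32-134D was also called without a low-count filter (−0.72, FDR 0.00415). Scaling by total library size shifted the median of all genes by −0.21 at 1% O2 and 0.19 with 32-134D, and moved the share of calls that were higher from 49.0% to 34.5% and from 54.2% to 72.0%. No pairing by replicate number was seen: deviations of same-numbered libraries correlated at −0.207 to 0.085, and 0 of 9 libraries correlated best with their own number. With 3 libraries per group, some standing apart, these correlations cannot show that the cultures were unpaired. With the replicate block, PFKP was called lower with 32-134D (−0.75, FDR 0.0384), so 4 genes were called lower in place of 3, and no other call of the 9 genes changed. PFKFB1, with at most 17 counts in a library, was the value most limited by depth.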
